A study of Homo sapiens with 5 samples.

Results

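The collagen genes are the protein-coding genes whose symbols read COL, a number, A and a number, and 44 of the 20037 protein-coding genes on chromosomes 1 to 22, X and Y met that rule (RefSeq, GRCh38.p14). Their peaks were taken from 5 ChIP-seq peak lists of BT549, a triple-negative breast cancer cell line. A peak counted for a gene when it lay inside the gene or within 50 kb of it. All cells carried a lentiviral insert for stable expression, either the HA control or caSmad3, a constitutively active form of Smad3. Both IRF3 libraries came from cells transfected with polyI:C and without TGF-beta, 1 from HA and 1 from caSmad3 cells. The 2 Smad3 libraries of HA cells followed a mock or a polyI:C transfection, and TGF-beta was added at 1 ng/ml, with 1.5 h of exposure. The Smad3 library of caSmad3 cells was polyI:C-transfected and had no TGF-beta. The HA and caSmad3 Smad3 libraries therefore differ in TGF-beta as well as in the insert. The mock HA library differs from the caSmad3 library in polyI:C too. These effects cannot be told apart. Each group was 1 library, so no difference between conditions was tested, and the identity of the cells could not be checked because binding data hold no marker levels.

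Collagens are secreted proteins whose chains wind into a triple helix. Fibrillar collagens give tissues their tensile strength, network collagens form the sheets of basement membranes, and beaded filament, fibril-associated and transmembrane collagens link cells and fibrils. Type I collagen is a textbook product of TGF-beta signalling, in which receptors phosphorylate Smad3 and Smad3 enters the nucleus. IRF3 acts downstream of the sensors of viral RNA and is best known at interferon genes. PolyI:C is a synthetic double-stranded RNA that engages those sensors.

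The start sites of 32 of the 44 genes were in the RefSeq promoter table (GRCh38.p14), which holds 250 bases before and 50 bases after each start. COL1A1, COL1A2, COL2A1, COL3A1, COL5A2, COL6A1, COL6A5, COL8A1, COL9A3, COL14A1, COL20A1 and COL22A1 were not matched, and for them a position is given as below or above the gene, meaning lower or higher coordinates. Peaks covered part of the promoter window of 4 of the 32 genes, all in lists from caSmad3 cells. Smad3 of caSmad3 cells did so for 3 of the 32, against 8.74% of all listed genes. IRF3 did so for 2 in caSmad3 cells (29.1% of all) and 0 in HA cells (15.2% of all). Smad3 in HA cells did so for 0 after mock transfection (0.133% of all) and 0 after polyI:C (0.682% of all). These 4 windows are shown because they are where a peak met the promoter window of a listed collagen gene. Capitals mark the bases under the peak.

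The window of COL5A1 (chr9:134641553-134641852, plus strand) was the one that both factors covered, with capitals for the Smad3 peak, which covered bases 241 to 300. The IRF3 peak of the same cells covered bases 102 to 300. COL12A1 (chr6:75206004-75206303, minus strand) and COL7A1 (chr3:48595280-48595579, minus strand) have the Smad3 peak in capitals, at bases 154 to 300 and 1 to 102. COL4A5 (chrX:108439588-108439887, plus strand) has the IRF3 peak in capitals, at bases 189 to 287.
COL5A1: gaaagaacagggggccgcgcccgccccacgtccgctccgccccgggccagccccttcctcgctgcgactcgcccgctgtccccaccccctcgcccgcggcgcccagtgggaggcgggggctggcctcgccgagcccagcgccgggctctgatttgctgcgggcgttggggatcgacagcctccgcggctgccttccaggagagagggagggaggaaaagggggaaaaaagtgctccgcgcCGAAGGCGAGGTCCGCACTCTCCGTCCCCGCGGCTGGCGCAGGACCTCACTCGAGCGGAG
COL12A1: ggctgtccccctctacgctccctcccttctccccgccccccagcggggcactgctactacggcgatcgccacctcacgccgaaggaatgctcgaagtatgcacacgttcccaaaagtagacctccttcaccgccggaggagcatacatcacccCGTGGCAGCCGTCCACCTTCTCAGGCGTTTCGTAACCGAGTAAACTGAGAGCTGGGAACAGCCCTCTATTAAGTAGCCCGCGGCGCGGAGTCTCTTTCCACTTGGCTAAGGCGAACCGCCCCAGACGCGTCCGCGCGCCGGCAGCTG
COL7A1: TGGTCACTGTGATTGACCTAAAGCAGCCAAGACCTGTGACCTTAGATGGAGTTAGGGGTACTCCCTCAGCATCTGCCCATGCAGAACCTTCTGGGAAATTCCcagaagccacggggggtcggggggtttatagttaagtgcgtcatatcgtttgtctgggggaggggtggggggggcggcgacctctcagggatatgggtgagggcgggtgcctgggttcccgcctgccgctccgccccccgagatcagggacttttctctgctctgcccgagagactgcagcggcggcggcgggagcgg
COL4A5: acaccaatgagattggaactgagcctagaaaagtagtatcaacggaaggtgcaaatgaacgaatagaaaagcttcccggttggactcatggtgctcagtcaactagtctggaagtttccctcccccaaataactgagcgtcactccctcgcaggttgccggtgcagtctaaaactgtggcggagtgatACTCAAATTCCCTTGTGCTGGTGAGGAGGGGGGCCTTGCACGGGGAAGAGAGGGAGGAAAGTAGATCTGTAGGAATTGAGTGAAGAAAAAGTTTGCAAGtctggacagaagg

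The listed start follows the first 250 bases of each window, so the Smad3 peaks at COL5A1 and COL12A1 lay over the start and that at COL7A1 lay before it. The windows of COL5A1, COL12A1, COL7A1 and COL4A5 had a G+C content of 74.0%, 63.3%, 62.3% and 49.3%, and the median of the 22199 listed promoters of protein-coding genes was 62.3%. They held 36, 29, 17 and 8 CpG dinucleotides, against a median of 21. All 7 motifs were searched on both strands. The Smad motif CAGACA was found in COL7A1 at bases 153 to 158 (15.2% of all listed promoters hold it), outside the bases under the peak. A palindromic GGCGCC stood in COL5A1 at bases 98 to 103 (24.3% of all), before the Smad3 peak and with its last bases under the IRF3 peak. AANNGAAA, a short form of the IRF site, was found in COL4A5 at bases 62 to 69 (19.3% of all), also outside the peak. TATAAA was found in COL7A1 at bases 127 to 132 (9.47% of all). The AP-1 motif TGANTCA (6.15% of all), the Smad palindrome GTCTAGAC (0.216%) and the interferon-stimulated response element (3.17%) were in none of the 4 windows. COL12A1 held none of the 7 motifs. Over the 44 listed windows of the 32 genes, which can overlap where a gene has several starts, GGCGCC was in 15 (34.1%), AANNGAAA in 11 (25%), TATAAA in 8 (18.2%) and CAGACA in 5 (11.4%).

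Smad3 in caSmad3 cells had the most peaks near collagen genes, 50 in all, near 27 of the 44 genes. That was 61.4% of collagen genes (95% Clopper-Pearson interval 45.5 to 75.6) where 33.8% of all protein-coding genes had such a peak. For Smad3 in HA cells, 2 genes had a peak after mock transfection (4.55%, 0.555 to 15.5, against 2.04% of all genes) and 5 after polyI:C (11.4%, 3.79 to 24.6, against 5.24%). The mock genes were COL1A1 and COL16A1, and the list after polyI:C also held COL5A1, COL6A1 and COL6A2, the last 2 through 1 shared peak. That list was longer (786 peaks against 353), and the difference was not tested. For IRF3, 15 genes had a peak in HA cells (34.1%, 20.5 to 49.9, against 37.6%) and 22 in caSmad3 cells (50%, 34.6 to 65.4, against 57.1%). The caSmad3 Smad3 list was thus the one whose interval lay above the background, and both IRF3 shares lay below theirs with the background inside the interval. These intervals cover counting error only and take genes as independent, although 14 collagen genes lie in 7 stretches of DNA with a collagen neighbour, so that the 44 genes form 37 separate stretches. By stretch, Smad3 of caSmad3 cells was near 23 of 37. The other counts were 15 and 21 for an IRF3 peak in HA and caSmad3 cells, and 2 and 4 for a Smad3 peak in HA cells after mock transfection and polyI:C. No share was computed for stretches of all protein-coding genes, so the counts by stretch cannot be set against the shares by gene.

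**Figure D1:**
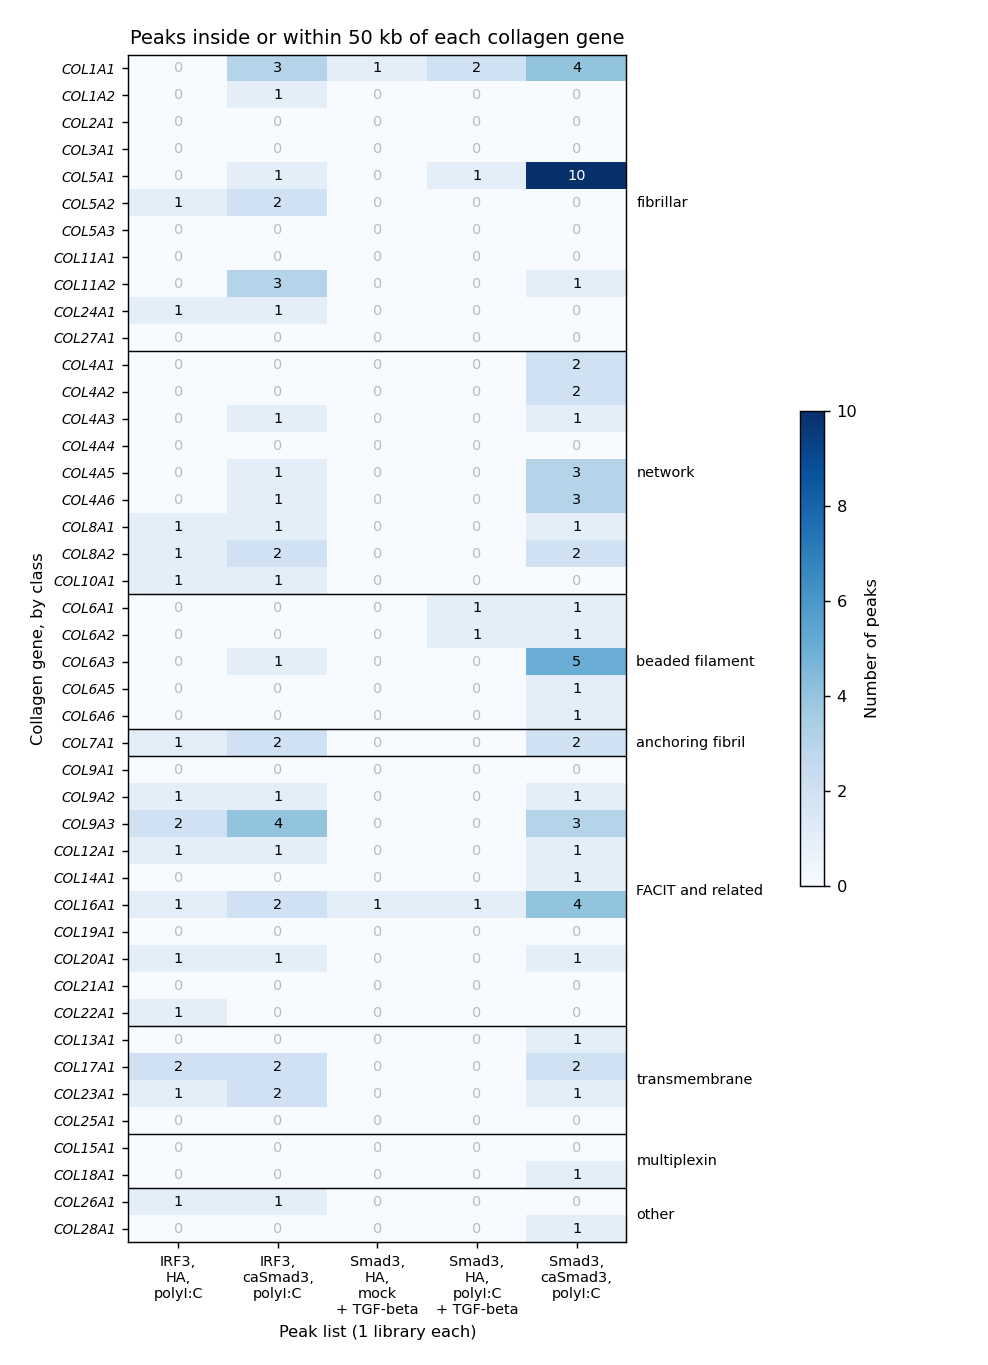
Number of peaks inside or within 50 kb of each of the 44 collagen genes (rows, by class) in each of the 5 lists (columns, 1 library each). COL5A1 has 10 Smad3 peaks in caSmad3 cells, and COL1A1 and COL16A1 are the genes with a peak in all 3 Smad3 lists.

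Collagen genes are long, with a median of 145 kb against 24.1 kb for all protein-coding genes. Among the 6036 protein-coding genes of 40.8 to 212 kb, the lower to the upper quartile of collagen lengths, 34.1% had a Smad3 peak of caSmad3 cells within 50 kb, which is close to the 33.8% of all genes. Per megabase of window, Smad3 of caSmad3 cells had 4.63 peaks around collagen genes and 2.65 around all protein-coding genes, and without COL5A1 the first value was 3.81. Counting only peaks inside genes, the values were 3.02 and 2.57 per megabase, and without COL5A1 the collagen value was 2.22, below that of all genes. IRF3 had fewer peaks inside collagen genes than inside all genes, with 0.287 against 2.39 per megabase in HA cells and 0.719 against 4.72 in caSmad3 cells. In these lists 75.7% and 77.5% of peaks lay within 1 kb of a gene end, and long genes have fewer ends per megabase. The part of length in this gap was not tested. By gene, IRF3 peaks overlapped 4.55% and 11.4% of collagen genes, against 15.6% and 31.8% of the genes of like length. The window edge fell in a gap: the farthest peak counted lay 45666 bases from its nearest collagen gene, COL6A3, and the nearest one left out lay 51050 bases from the same gene.

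Closer to the genes the IRF3 shares were below the background and the Smad3 share of caSmad3 cells above it. A peak inside the gene or within 10 kb was listed for 14 collagen genes for Smad3 in caSmad3 cells (31.8%, 18.6 to 47.6, against 19.9% of all genes) and for 2 in each HA list (4.55%, against 0.918% after mock transfection and 2.53% after polyI:C). IRF3 had such a peak at 4 genes in HA cells (9.09%, 2.53 to 21.7, against 23.6%) and at 9 in caSmad3 cells (20.5%, 9.80 to 35.3, against 40.5%). Both IRF3 intervals lay below the background, and that of Smad3 included it. Among the genes of like length the shares within 10 kb were 23.5% and 43.0% for IRF3 and 22% for Smad3 of caSmad3 cells. A peak overlapped 11 collagen genes for Smad3 in caSmad3 cells (25%, 13.2 to 40.3, against 12.2% of all genes and 15.5% of those of like length, which the interval includes) and 1 in each HA list, COL16A1 in both (2.27%, against 0.524% and 1.47%). IRF3 peaks overlapped 2 genes in HA cells (4.55%, 0.555 to 15.5, against 15.1%) and 5 in caSmad3 cells (11.4%, 3.79 to 24.6, against 28.8%). Here the interval of HA cells included the background of all genes, and that of caSmad3 cells lay below it.

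**Figure D2:**
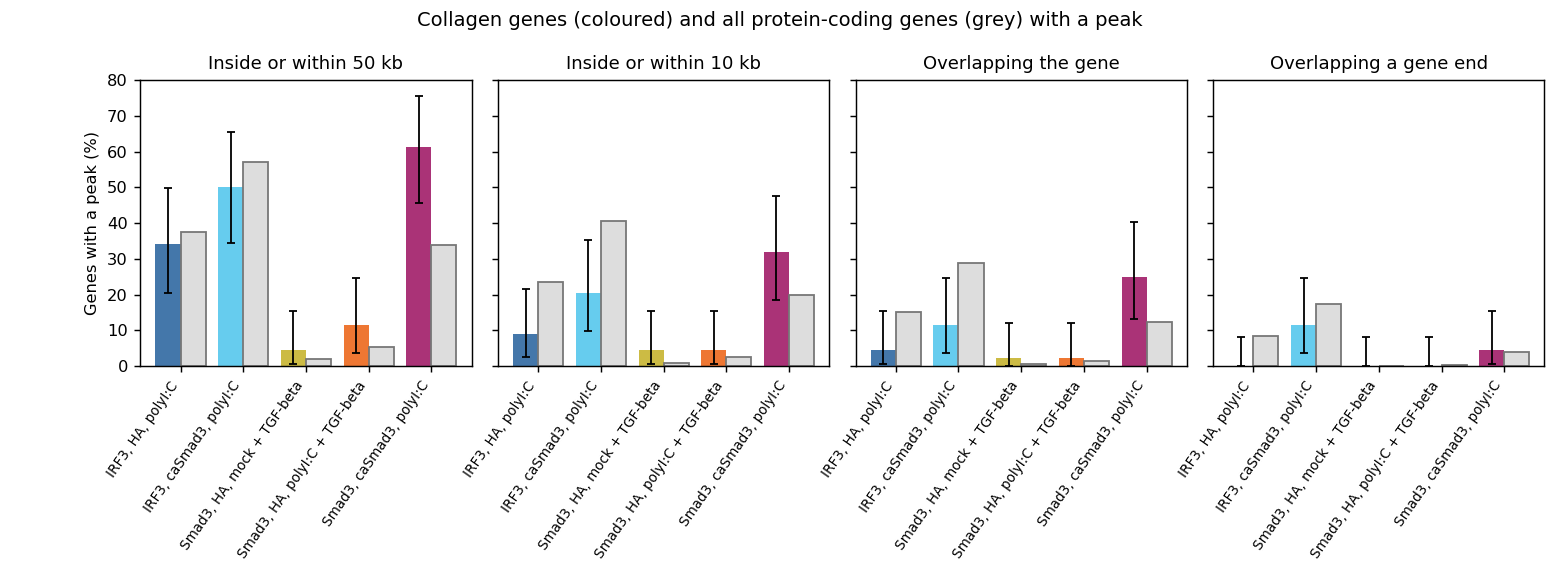
Share of genes with a peak (y axis, percent) in each list (x axis), for 4 rules of distance. Coloured bars are the 44 collagen genes with 95% Clopper-Pearson intervals and grey bars are all 20037 protein-coding genes; Smad3 of caSmad3 cells stands above grey in all 4 panels, by little for gene ends (4.55% against 4.07%), and both IRF3 lists stand below grey in all 4.

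Among the 11 fibrillar genes, COL1A1 was the one with peaks in both factors and in all 3 Smad3 lists. COL1A1 encodes the main chain of type I collagen. It had 1 Smad3 peak after mock transfection, 2 after polyI:C and 4 in caSmad3 cells, while IRF3 had 3 in caSmad3 and 0 in HA cells. One place below the gene was listed in all 3 Smad3 lists (chromosome 17). There the peak of caSmad3 cells was 948 bases wide (50177956 to 50178903), the widest near any collagen gene, and lay 5198 bases below COL1A1. The mock peak was 452 bases (50178272 to 50178723), and after polyI:C peaks of 99 bases (50178375 to 50178473) and 265 bases (50178523 to 50178787) lay inside the span of the caSmad3 peak. The gene end nearest to this place belongs to SGCA, a sarcoglycan gene, 2028 bases from the caSmad3 peak. IRF3 of caSmad3 cells had a peak of 265 bases over the upper end of COL1A1 (50201414 to 50201678), and Smad3 of the same cells one of 123 bases inside the gene, 677 bases from that end (50200832 to 50200954). These did not overlap. A further Smad3 peak of 156 bases lay 17249 bases above the gene. The others of caSmad3 cells, 1 of Smad3 and 2 of IRF3, lay 22431 to 32690 bases below it and nearest to SGCA or PPP1R9B.

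COL5A1 had the most peaks of any collagen gene. It encodes a chain of type V collagen, which sits inside type I fibrils and sets their diameter. Smad3 of caSmad3 cells had 10 peaks there, a number that 81 of the 20037 protein-coding genes reached (0.404%). Chromosome 9, where it lies, had 5.28 such peaks per megabase of gene windows, against 2.65 over all chromosomes, and the part of this in the count was not tested. The 10 peaks ran over 67.9 kb (134602484 to 134670394), with 4 upstream of the gene and 6 inside it or over its start. The widest, 521 bases (134602484 to 134603004), lay 38799 bases upstream and covered a Smad3 peak of 105 bases (134602581 to 134602685) that was the only one listed near COL5A1 in HA cells after polyI:C. None was listed there after mock transfection. The 6 inner peaks lay in the first 14.1% of the gene, with the centre of the last 28.5 kb from the start. Over the start, shown above, IRF3 of caSmad3 cells had a peak of 299 bases (134641654 to 134641952) and Smad3 of the same cells one of 99 bases (134641793 to 134641891) inside it. IRF3 had none near COL5A1 in HA cells.

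COL1A2 and COL5A2, which encode partner chains of types I and V, had IRF3 peaks and no Smad3 peak in any list. At COL1A2 the IRF3 peak of caSmad3 cells was 99 bases over the lower end (chromosome 7, 94394853 to 94394951), and HA cells had none. At COL5A2 it was 342 bases over the upper end (chromosome 2, 189440874 to 189441215). A second IRF3 peak of caSmad3 cells, 340 bases wide, lay 239 bases above COL5A2 and overlapped the only HA peak there, 187 bases wide, and both of these were nearest to the neighbouring gene WDR75, a ribosome biogenesis factor. Together with the peak over the COL4A5 start, a gene end of 5 collagen genes (COL1A1, COL1A2, COL4A5, COL5A1 and COL5A2) was under an IRF3 peak in caSmad3 cells (11.4%, against 17.4% of all genes) and of 0 in HA cells (against 8.48%), where a count of 0 allows a share of up to 8.04% (95% Clopper-Pearson). Smad3 peaks covered an end of COL5A1 and COL12A1 in caSmad3 cells (4.55%, against 4.07%) and of no collagen gene in HA cells after mock transfection (0.0499% of all genes) or polyI:C (0.245%). Of the 5 IRF3 peaks, those at COL1A2 and COL4A5 had the narrowest width in the list, and with such peaks left out 3 genes remained (6.82%, against 17.0%). All genes also had such peaks more often in the caSmad3 list, which was longer (8067 peaks against 4125).

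Of the other fibrillar genes, COL11A2, a cartilage collagen gene, had 3 IRF3 peaks and 1 Smad3 peak in caSmad3 cells, the nearest 6988 bases upstream, and each was nearest to RXRB, SLC39A7 or RING1. COL24A1 had 1 IRF3 peak in each list, both over an end of ZNHIT6. COL2A1, COL3A1, COL5A3, COL11A1 and COL27A1 had no peak within 50 kb in any list. COL3A1 encodes type III collagen, which is laid down with type I in many tissues.

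**Figure D3:**
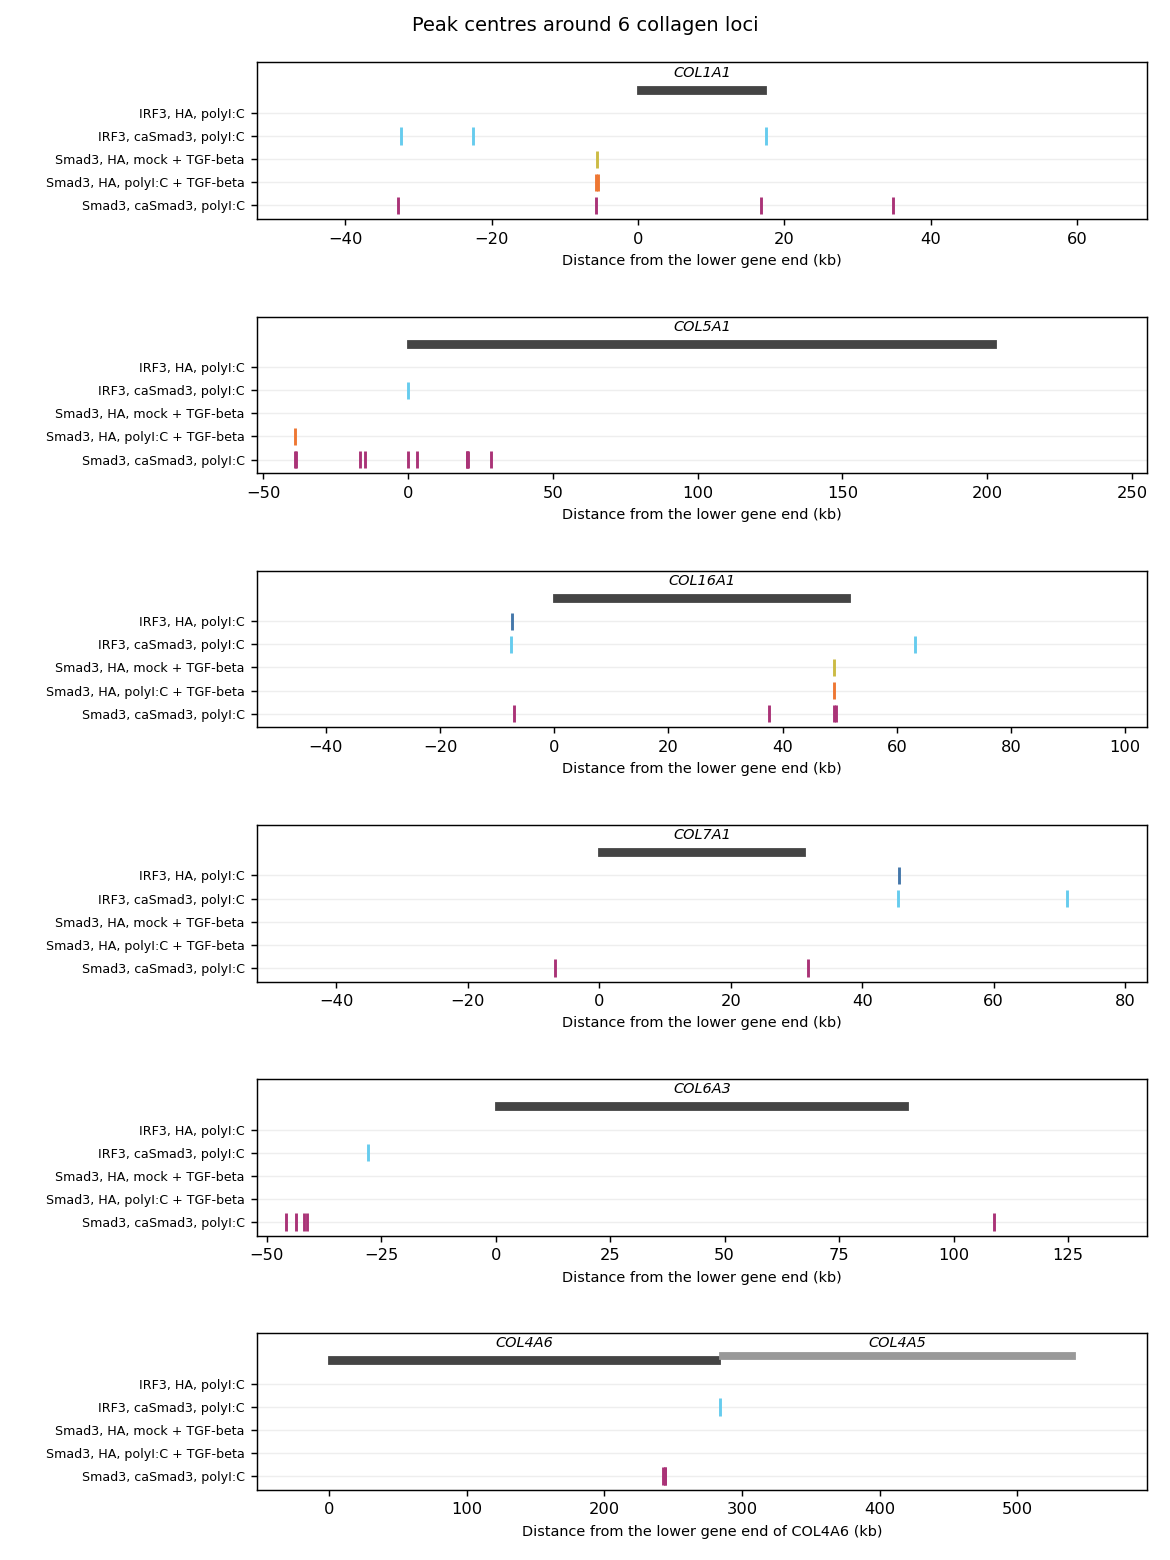
Peak centres (ticks) in the 5 lists around COL1A1, COL5A1, COL16A1, COL7A1, COL6A3 and the pair COL4A6 and COL4A5; x axis, distance from the lower gene end in kb, with the scale set for each panel and bars for the genes. Ticks of the 3 Smad3 lists line up below COL1A1 and inside COL16A1, and those upstream of COL5A1 line up between HA cells after polyI:C and caSmad3 cells.

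Network collagens, with 9 genes, build basement membranes and other sheets, and none of them had a Smad3 peak in HA cells. In caSmad3 cells 7 of the 9 had a Smad3 peak within 50 kb, where 33.8% of all genes did, and 3 had one inside (12.2% of all genes). These 7 are not independent, since COL4A1 and COL4A2 shared their peaks, as did COL4A5 and COL4A6. COL4A1 and COL4A2, the divergent pair that encodes the common chains of type IV collagen, shared 2 Smad3 peaks of 109 and 293 bases (chromosome 13, 110347589 to 110348251), which lay inside COL4A2, with centres 40.4 and 40.8 kb from its start. Chromosome 13 was among the sparsest in that list, with 0.934 peaks per megabase. COL4A6 and COL4A5, another divergent pair, shared 3 Smad3 peaks of 140 to 235 bases close together (chromosome X, 108398059 to 108400160), all inside COL4A6, with centres 39.4 to 41.3 kb from its start. The IRF3 peak of caSmad3 cells between the pair was 99 bases (108439776 to 108439874) and lay over the COL4A5 start, 318 bases from COL4A6. COL4A3 had a Smad3 and an IRF3 peak in caSmad3 cells over an end of MFF, 10383 bases or more downstream, and COL4A4, its divergent partner, had none in any list.

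The short-chain genes COL8A1 and COL8A2 each had peaks in both IRF3 lists and in the caSmad3 Smad3 list. COL8A1 had an IRF3 peak of 196 bases inside in HA cells, 77603 bases from the nearer end (chromosome 3, 99721419 to 99721614), which had no counterpart in caSmad3 cells, and a Smad3 peak of 262 bases inside in caSmad3 cells at another place (99659100 to 99659361). Its IRF3 peak of caSmad3 cells lay 18536 bases above the gene, over an end of CMSS1. At COL8A2 all 5 peaks lay outside the gene, and those of IRF3 in both lists overlapped inside TRAPPC3, a vesicle transport gene, the nearer 24020 bases from COL8A2. A further IRF3 peak of caSmad3 cells lay 6100 bases downstream, over an end of ADPRS. COL10A1, which marks hypertrophic cartilage, had 1 IRF3 peak in each IRF3 list, both at TSPYL4.

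All 5 genes of the beaded filament collagens, type VI, had a Smad3 peak of caSmad3 cells within 50 kb (33.8% of all genes), and 1 had one inside (12.2% of all genes). They form 3 stretches, because COL6A1 and COL6A2 shared 1 peak and COL6A5 and COL6A6 another. COL6A3 had 5, the most after COL5A1. Of these, 4 lay 41060 to 45666 bases downstream of the gene, in a cluster that spanned 4.71 kb (chromosome 2, 237278254 to 237282958), and 1 of 769 bases lay 18387 bases upstream (237432551 to 237433319), the second widest near any collagen gene. The nearest protein-coding gene to all 5 was COL6A3. Between COL6A1 and COL6A2 lay a Smad3 peak of 414 bases in caSmad3 cells (chromosome 21, 46049276 to 46049689), and HA cells given polyI:C had one of 175 bases inside it (46049499 to 46049673), 44451 bases from COL6A1 and 48439 bases from COL6A2. None was listed there after mock transfection. COL6A5 and COL6A6 shared 1 Smad3 peak of the narrowest width, 99 bases, inside COL6A6. IRF3 had 1 peak in this class, 27712 bases downstream of COL6A3 in caSmad3 cells.

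COL7A1, the gene of the anchoring fibrils that fasten epithelium to the dermis, had a Smad3 peak of 642 bases in caSmad3 cells that began 149 bases upstream of the gene (chromosome 3, 48595478 to 48596119), part of which is the window shown above. A second Smad3 peak of 209 bases lay 6613 bases downstream, inside PFKFB4. Its IRF3 peaks lay 14086 bases or more upstream, over an end of UQCRC1 in both lists and near SLC26A6 in caSmad3 cells.

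Among the 10 fibril-associated (FACIT) genes, COL16A1 was the second gene with a peak in all 3 Smad3 lists. It encodes a minor collagen associated with fibrils. The shared place lay inside the gene, with centres 2.71 to 2.78 kb from its start (chromosome 1), as a peak of 101 bases after mock transfection (31701192 to 31701292), 334 bases after polyI:C (31701142 to 31701475) and 406 bases in caSmad3 cells (31701089 to 31701494). In caSmad3 cells 2 more lay inside, of 121 and 163 bases, and another was next to PEF1. COL16A1 had an IRF3 peak in both lists downstream, over or next to an end of PEF1, and IRF3 of caSmad3 cells had another 11302 bases upstream. COL12A1, which encodes a FACIT collagen of dense connective tissue, had a Smad3 peak of 204 bases over its start in caSmad3 cells (chromosome 6, 75205947 to 75206150), whereas its IRF3 peaks lay 37558 bases or more upstream, inside COX7A2.

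COL9A3 had 2 and 4 IRF3 peaks in HA and caSmad3 cells and 3 Smad3 peaks in caSmad3 cells, all 19856 to 21794 bases below the gene and nearest to MRGBP. Chromosome 20, where it lies, was the densest in the caSmad3 Smad3 list, with 7.12 peaks per megabase. COL9A2 had 1 in each of those 3 lists at ZMPSTE24, and COL20A1 1 in each at or next to ARFGAP1, the Smad3 peak 3090 bases below COL20A1. COL14A1 had a Smad3 peak of 214 bases inside in caSmad3 cells, 26340 bases from its nearer end, and COL22A1 an IRF3 peak of 99 bases inside in HA cells, 77657 bases from its nearer end. COL9A1, COL19A1 and COL21A1 had none.

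Of the transmembrane collagens, COL13A1 had a Smad3 peak of 342 bases inside the gene in caSmad3 cells, 62.8 kb from its start. COL17A1, a component of hemidesmosomes, had 2 peaks in each of the IRF3 lists and in the caSmad3 Smad3 list, all 35597 to 36250 bases upstream and inside SFR1, a gene of recombination repair. COL23A1 had an IRF3 peak over an end of HNRNPAB in both lists, where the caSmad3 peak of 698 bases (chromosome 5, 178204045 to 178204742) was the widest IRF3 peak near a collagen gene and the HA peak of 409 bases (178204280 to 178204688) the widest of its list. A Smad3 peak of 243 bases lay in the same place in caSmad3 cells, and a further IRF3 peak of those cells over an end of CLK4. COL25A1 had no peak. Of the multiplexins, COL18A1, from which endostatin is cleaved, had 1 Smad3 peak of 405 bases 40710 bases upstream in caSmad3 cells, and COL15A1 had none. COL26A1 had an IRF3 peak at IFT22 in both lists, and COL28A1 a Smad3 peak of 99 bases inside in caSmad3 cells.

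Over all classes, most IRF3 peaks near collagen genes were nearest to another gene, and most Smad3 peaks of caSmad3 cells were nearest to a collagen gene. Collagen genes themselves took up 6.96 Mb of the 10.8 Mb of their windows. How far length sets these counts was not tested, and no like share was computed for other genes. The nearest protein-coding gene was a collagen gene for 2 of 17 IRF3 peaks of HA and 7 of 34 of caSmad3 cells, 1 of 2 and 3 of 5 Smad3 peaks in HA cells after mock transfection and polyI:C, and 34 of 50 Smad3 peaks in caSmad3 cells. An end of some protein-coding gene lay within 1 kb of 58.8% and 73.5% of the IRF3 peaks of HA and caSmad3 cells, against 75.7% and 77.5% of all IRF3 peaks of those lists. For Smad3 of caSmad3 cells the share was 24% near collagen genes and 33.7% in the whole list. The 34 Smad3 peaks of caSmad3 cells nearest to a collagen gene had a median distance of 23522.5 bases to the nearest gene end, and 21 of them lay inside a collagen gene or over its end. For the 18 of these in genes with a listed strand, the median position was 12.1% of the gene length from its start. Of the 18, 17 lay in the first 50%. They came from 8 genes, with 6 peaks from COL5A1, 3 from COL4A6 and 2 from COL4A2. Those of COL4A6 lay close together, as did those of COL4A2, so the 18 are not independent. No such position was computed for peaks inside other genes, so whether collagen genes differ in this was not tested.

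**Figure D4:**
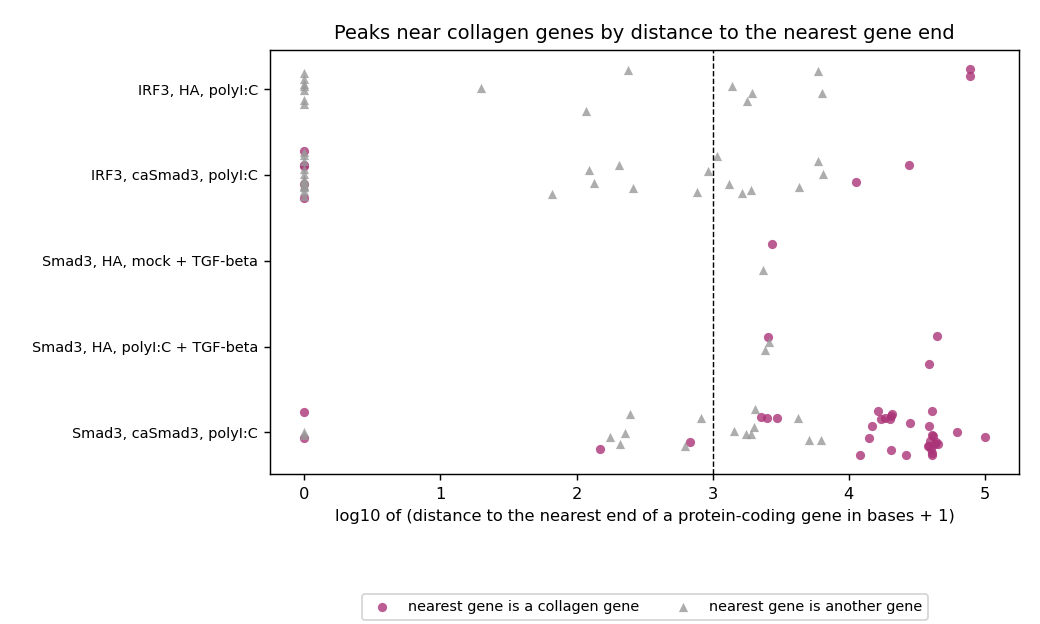
Distance of each peak near a collagen gene to the nearest end of any protein-coding gene (x axis, log10 of bases + 1) in each list (rows); points are circles where the nearest gene is a collagen gene and triangles where it is another gene, with vertical jitter for display. The dashed line is 1 kb; most circles of the caSmad3 Smad3 list lie to its right, and most IRF3 triangles to its left.

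Merged over lists by at least 1 shared base, the peaks formed 76 sites. Of these 37 were listed for Smad3 in caSmad3 cells alone, 14 for IRF3 in caSmad3 cells alone and 2 for IRF3 in HA cells alone. A further 10 were in both IRF3 lists and no other, and 5 in both IRF3 lists and the caSmad3 Smad3 list. IRF3 and Smad3 of caSmad3 cells shared 4 sites that HA cells lacked. The 4 sites with a Smad3 peak of HA cells (at COL1A1, COL16A1, COL5A1 and between COL6A1 and COL6A2) were all in the caSmad3 Smad3 list, and none held an IRF3 peak. Over the whole lists, 37.7% of mock Smad3 peaks overlapped an IRF3 peak of HA cells and 39.9% one of caSmad3 cells. After polyI:C these shares were 31.2% and 34.6%, so with each IRF3 list taken alone most Smad3 peaks of HA cells had no overlap. The share that overlapped neither IRF3 list was not computed.

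Among single peaks, the IRF3 list of HA cells had 15 of 17 that overlapped one of caSmad3 cells (88.2%, against 82.8% of all HA peaks), and the other two were those inside COL8A1 and COL22A1. In the other direction 15 of 34 overlapped (44.1%, against 40.9%). Both mock Smad3 peaks overlapped one after polyI:C (against 70.0% of all mock peaks), and all 5 after polyI:C overlapped one of caSmad3 cells (against 86.4%). Within caSmad3 cells, 9 of 50 Smad3 peaks met an IRF3 peak (18%, against 31.6% of the whole list), and 10 of 34 IRF3 peaks met a Smad3 peak (29.4%, against 22.8%). Of the places where Smad3 and IRF3 peaks of caSmad3 cells met, the start of COL5A1 was the one with a collagen gene as the nearest gene. None of the overlaps between lists was tested.

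The genes that fold, cut, cross-link, bind and degrade collagen were counted by the same rules, as 50 genes in 5 groups. A Smad3 peak lay within 50 kb of 25 in caSmad3 cells (50%, against 33.8% of all genes), of 7 in HA cells after polyI:C (14%, against 5.24%) and of 2 after mock transfection (4%, against 2.04%). IRF3 was near 21 in HA cells (42%, against 37.6%) and 31 in caSmad3 cells (62%, against 57.1%). Within 10 kb IRF3 was at 13 of 50 in HA cells (26%, against 23.6%) and 21 in caSmad3 cells (42%, against 40.5%), near the background, where the collagen genes themselves gave 9.09% and 20.5%. By group, IRF3 of caSmad3 cells was within 10 kb of 10 of 17 genes of folding and modification, 3 of 4 of export, 4 of 13 of propeptide cleavage and crosslinking, 2 of 9 receptors and 2 of 7 of degradation. Smad3 of the same cells was within 10 kb of 17 of the 50 (34%, against 19.9% of all genes), and by group of 6, 2, 4, 4 and 1 in that order.

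LOXL2, a lysyl oxidase that cross-links collagen, had 8 Smad3 peaks in caSmad3 cells, 1 in HA cells after polyI:C and 0 after mock transfection, all within 10 kb or inside. The HA peak was 144 bases (23354091 to 23354234) and lay inside a caSmad3 peak of 431 bases (23353836 to 23354266), 49854 bases from the nearer end. IRF3 peaks of 381 and 433 bases lay over an end of LOXL2 in HA and caSmad3 cells. MMP2, a gelatinase, had a Smad3 peak of 156 bases after polyI:C inside one of 396 bases in caSmad3 cells, 7770 bases from the gene (55470665 to 55471060). DDR1, a collagen receptor kinase, counted after mock transfection through a peak of 103 bases that was nearest to GTF2H4. The other genes with the most peaks were PLOD1, a lysyl hydroxylase (18 over the 5 lists within 50 kb), ITGB1, the beta chain of collagen-binding integrins (12), P3H2, a prolyl hydroxylase (9), and FKBP10, a collagen chaperone (8). Within 10 kb these genes had 4, 4, 4 and 3, and those of PLOD1 were all IRF3 peaks. ITGB1 had 3 Smad3 peaks within 10 kb in caSmad3 cells, 1 of which, 337 bases wide and 101 bases from the gene (32958331 to 32958667), covered its IRF3 peak of 228 bases.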

How the data were processed

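The deposited values are peak positions in bases: the authors' 5 BED lists, 1 per library, hold only a position (chromosome, start and end) and a name per peak, with no score, p-value or read count. Per the submitters' processing notes, hg38, Bowtie2 2.2.2.6 and MACS2 2.1.0 were used; for the peak threshold, the input and duplicate removal the setting is not given in the sources used here. Depth is unknown, so neither list length nor a missing peak measures binding. The lists held 4125 and 8067 IRF3 peaks (HA, caSmad3) and 353, 786 and 6041 Smad3 peaks (HA mock, HA polyI:C, caSmad3), with a narrowest width of 99 bases.

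Starts were made 1-based. Gene positions came from RefSeq (GRCh38.p14, the coordinates of hg38), and the window, overlap and nearest-gene counts were made in Python 3.11.15 with pandas 2.3.3 and scipy 1.17.1, after being tested on simulated peaks. A peak counted for every gene whose window (50 kb) it touched, and peaks were shared when at least 1 base was in common. The nearest gene is the one at the smallest distance, 0 inside it. A gene end is its first or last base. Named are collagen genes with a peak within 10 kb, with coordinates for peaks over a gene end, peaks shared between lists and the widest of each list; genes with peaks only at 10 to 50 kb, and some further peaks and neighbours, were described after their values were seen. The members, gene lists, motifs and classes were chosen with earlier results of these data known. No test was made, as each group was 1 library.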

Additional observations from a re-analysis of the deposited data

How the results depend on the processing

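Counts are given in the order IRF3 in HA and caSmad3 cells, then Smad3 in HA cells after mock transfection, HA cells after polyI:C and caSmad3 cells. Collagen genes with a peak (15, 22, 2, 5 and 27) went to 4, 9, 2, 2 and 14 within 10 kb. They went to 2, 5, 1, 1 and 11 for peaks overlapping the gene, and to 7, 13, 1, 4 and 18 in the wider 50% of peaks. With only peaks whose nearest gene was a collagen gene, they went to 2, 8, 1, 4 and 19. That count took in every collagen gene within 50 kb of such a peak, also one that was not the nearest. Peaks near them (17, 34, 2, 5 and 50) went to 4, 10, 2, 3 and 27 within 10 kb, to 29, 54, 3, 7 and 71 within 100 kb, to 2, 5, 1, 1 and 21 for those overlapping the gene, to 7, 19, 1, 3 and 24 in the wider 50%, and to 2, 7, 1, 3 and 34 by the nearest gene. The alternatives added after seeing the data left out peaks of the narrowest width or COL5A1, or used gene ends. Genes with a peak over an end were 0, 5, 0, 0 and 2. Without the narrowest peaks, and in the wider 50%, they were 3 for IRF3 and 1 for Smad3 in caSmad3 cells. For IRF3 that was 6.82%, against 17.0% and 13.3% of all genes. For Smad3 it was 2.27%, against 3.88% and 2.57%, so its share fell below the background in both. Within 1 kb of an end they were 1 for IRF3 in HA cells (2.27%, against 17.0% of all genes) and 6 in caSmad3 cells (13.6%, against 31.1%). For Smad3 in caSmad3 cells they were 4 (9.09%, against 10.6%), so by this rule too its share lay below the background. Overlaps over at least 50% of both peaks fell to 9 (IRF3 in HA with caSmad3 cells), 0 (Smad3 after mock with polyI:C), 1 (Smad3 after polyI:C with caSmad3 cells) and 3 (Smad3 with IRF3 in caSmad3 cells), and within 10 kb these overlaps were 2, 2, 3 and 2. In all, 48 values moved by more than 1.5 times, and 49 did not. Narrower windows and fewer peaks hold fewer counts by construction. In the wider 50% of peaks Smad3 of caSmad3 cells was near 40.9% of collagen genes and 20.5% of all genes, while without the narrowest peaks it was near 47.7% and 31.8%. In the wider 50% IRF3 was near 15.9% against 23.2% in HA cells and 29.5% against 40.7% in caSmad3 cells. No paired analysis was possible because each group holds 1 library.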
